A study of Homo sapiens with 27 samples.

Results

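Antigen presentation by major histocompatibility complex (MHC) class I molecules was described through 9 genes in 22Rv1, DU145 and PC3, which are lines of human prostate cancer cells, with and without CRISPR guide RNAs against RIPK2. The genes were taken by symbol from the deposited count tables: the class I heavy chains HLA-B, HLA-C, HLA-E and HLA-F, the light chain B2M, the peptide transporter subunits TAP1 and TAP2, and the immunoproteasome subunits PSMB8 and PSMB9. All 9 were listed in each line, among 27546 symbols listed in at least one of the tables. A filter on low counts kept all 9 in DU145 and in PC3 and 8 in 22Rv1, where HLA-F held 0 to 18 counts per library.

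The series asks which transcripts follow RIPK2, a kinase that relays signals from the intracellular sensors NOD1 and NOD2 to NF-kB. It holds 27 bulk RNA libraries, 9 from each of 22Rv1, DU145 and PC3. Every line has 3 groups of 3 libraries, labelled wild type with a control guide (control gRNA 1), RIPK2 knockout with a first guide and RIPK2 knockout with gRNA 10. That first guide is gRNA 1 for 22Rv1, whereas DU145 and PC3 carry gRNA 2. No drug or cytokine is named for any group, so all groups share untreated culture as far as the labels go. Whether a knockout group was cloned or kept as a mixed population, and whether replicates were separate cultures, is not given in them. The p-values therefore measure the spread between these libraries only, which may be technical.

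Class I molecules show peptides from a cell's own proteins to CD8 T cells. The proteasome cuts the proteins, and its immunoproteasome form, which carries PSMB8 and PSMB9, favours peptides that class I can bind. TAP1 and TAP2 together pump these peptides into the endoplasmic reticulum, where a heavy chain pairs with beta-2 microglobulin, the product of B2M, and is loaded before it travels to the surface. HLA-B and HLA-C are classical, highly polymorphic heavy chains, HLA-E presents leader peptides of other class I chains to NKG2 receptors on natural killer cells, and HLA-F is a non-classical chain of narrower expression. The transactivator NLRC5, the RFX complex, CREB and ATF factors and NF-Y act on the class I promoters, and NF-kB and interferon-induced factors of the STAT and IRF families act through nearby elements. Low class I expression is a known feature of many prostate cancers.

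Of the members, 8 lie on chromosome 6 between positions 29723434 and 32859851, and B2M is the exception on chromosome 15 (RefSeq, GRCh38.p14). HLA-F occupies chr6:29723434-29738532, HLA-E chr6:30489509-30494194, HLA-C chr6:31268749-31272092 and HLA-B chr6:31353875-31357179. TAP2 at chr6:32821831-32838739, PSMB8 at chr6:32840717-32844679, TAP1 at chr6:32845209-32853704 and PSMB9 at chr6:32854192-32859851 follow one another in the class II part of the region. B2M lies at chr15:44711517-44718145. TAP1 and PSMB9 are transcribed away from each other, from starts 488 bases apart. The 250 bases before the transcription start are shown for 5 members, since their promoters carry the elements on which the known regulators act and since the results below turn on how these genes move together or apart. Each runs 5′ to 3′ along the gene's own strand, from RefSeq on GRCh38.p14. Capitals mark matches, on either strand, to the NF-kB consensus, the IRF core AANNGAAA, the CRE core TGACG or the CCAAT box.
HLA-B, chr6:31357180-31357429, minus strand: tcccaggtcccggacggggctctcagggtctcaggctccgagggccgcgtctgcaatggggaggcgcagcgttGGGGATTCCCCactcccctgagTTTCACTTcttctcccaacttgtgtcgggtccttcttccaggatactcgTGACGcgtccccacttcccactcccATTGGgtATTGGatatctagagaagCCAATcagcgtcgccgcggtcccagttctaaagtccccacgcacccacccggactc
HLA-C, chr6:31272093-31272342, minus strand: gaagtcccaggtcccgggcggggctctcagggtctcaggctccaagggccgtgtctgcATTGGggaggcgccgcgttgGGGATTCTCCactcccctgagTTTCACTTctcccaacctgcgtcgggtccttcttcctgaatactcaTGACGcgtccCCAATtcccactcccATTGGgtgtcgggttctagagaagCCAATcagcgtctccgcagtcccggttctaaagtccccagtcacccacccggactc
B2M, chr15:44711267-44711516, plus strand: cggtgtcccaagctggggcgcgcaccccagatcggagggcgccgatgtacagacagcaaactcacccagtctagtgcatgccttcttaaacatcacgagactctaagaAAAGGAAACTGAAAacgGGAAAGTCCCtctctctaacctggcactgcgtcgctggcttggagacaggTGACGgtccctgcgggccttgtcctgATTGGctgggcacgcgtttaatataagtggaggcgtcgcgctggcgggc
TAP1, chr6:32853705-32853954, minus strand: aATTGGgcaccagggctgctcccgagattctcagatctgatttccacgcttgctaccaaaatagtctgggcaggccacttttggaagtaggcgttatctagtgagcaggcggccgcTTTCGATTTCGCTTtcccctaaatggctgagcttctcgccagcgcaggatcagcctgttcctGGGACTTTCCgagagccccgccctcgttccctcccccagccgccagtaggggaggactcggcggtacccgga
PSMB9, chr6:32853942-32854191, plus strand: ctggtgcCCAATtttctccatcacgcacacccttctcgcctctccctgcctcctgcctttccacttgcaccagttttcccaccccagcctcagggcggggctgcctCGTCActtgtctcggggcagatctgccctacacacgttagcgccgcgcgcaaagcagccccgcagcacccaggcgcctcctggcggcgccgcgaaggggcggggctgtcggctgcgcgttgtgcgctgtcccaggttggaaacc

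Upstream stretches of this length were at hand for 8 members, all but HLA-E, which was not searched. In the 8, 4 motifs were searched, chosen with these sequences in view. The NF-kB consensus was found in 4 of the 8, against 9.96% of 35116 RefSeq promoters. They were HLA-B, HLA-C, B2M and TAP1, and in HLA-B 4 matches overlap on 1 stretch, 2 on each strand. The IRF core was found in 6 of 8, all but PSMB8 and PSMB9, against 20.3% of all promoters. The CRE core was also found in 6 of 8, all but HLA-F and TAP1, against 21.2%, and the CCAAT box in 6 of 8, all but TAP2 and PSMB8, against 32.0%. In HLA-B and HLA-C the NF-kB match lies farthest from the start among these 3, followed by the IRF core and the CRE core, whereas the PSMB9 stretch holds 1 CRE core and 1 CCAAT box. The IRF matches in B2M, TAP1 and TAP2 come in overlapping pairs. The TAP1 and PSMB9 stretches share 13 bases with a CCAAT match, which is counted in both. A match describes letters and is not a measured binding site.

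The libraries held 17958558 to 20650819 counts. RIPK2 fell in 22Rv1 by 0.94 (gRNA 1) and 1.63 (gRNA 10) on the log2 scale, in DU145 by 1.84 with gRNA 2, and in PC3 by 1.55 (gRNA 2) and 1.15 (gRNA 10). In the gRNA 10 libraries of DU145 its log2 fold change of -0.29 missed the threshold (adjusted p = 0.0614, edgeR quasi-likelihood test), with all 3 libraries below the controls. That group is therefore given by its guide, and its knockout is what the label says of it. Replicate 3 of gRNA 1 in 22Rv1 stood apart, with 16.7% of its counts in mitochondrially encoded genes against 2.10% and 1.92% in its replicates. Replicate 3 of gRNA 2 in DU145 stood apart less, with a chi-square per degree of freedom of 54.3 and 76.0 against its replicates and 17.8 between those. Its mitochondrial share was 2.89% against 1.75% and 2.12%, but the gRNA 10 libraries of DU145 held 2.70%, 2.46% and 2.77%. Levels are given as CPM, the count scaled to a common library size with TMM factors computed within each line. Leukocyte markers, of which 6 of 8 were listed, summed to 0.549 to 3.27 CPM in all libraries, and PTPRC, which defines leukocytes, held 0 to 6 counts. The 8 fibroblast and endothelial markers, most of whose counts were COL1A1 in 22Rv1 and DU145, summed to 9.52 to 11.5 CPM in 22Rv1 controls, 14.7 to 32.1 with gRNA 1 and 24.5 to 26.7 with gRNA 10. In DU145 they summed to 13.6 to 14.8, 5.81 to 12.7 and 25.8 to 32.4 CPM (control, gRNA 2, gRNA 10), and in PC3 to 65.0 to 67.2, 64.5 to 74.9 and 77.7 to 81.7 CPM, and their part in the results was not tested. Of the line markers, KLK3, a secreted prostate protease, averaged 20.1 CPM in 22Rv1 controls and was at 0 in the controls of DU145 and PC3. The 7 line markers together (6 listed in PC3) moved with the groups: they summed to 1122 to 1142, 1202 to 1322 and 1336 to 1356 CPM in 22Rv1 (control, first guide, gRNA 10), to 1395 to 1458, 2152 to 4063 and 2009 to 2141 in DU145, and to 2154 to 2230, 3056 to 3118 and 2861 to 3046 in PC3. Of those tested, 3 rose and 2 fell with gRNA 1 and 4 rose and 2 fell with gRNA 10 in 22Rv1 (7 tested). In DU145, 4 and 2 rose (4 tested), and in PC3 3 rose with each guide while 1 and 2 fell (5 tested). Their log2 fold changes in PC3 ran from -9.54 to 0.55 with gRNA 2 and from -0.34 to 2.91 with gRNA 10. Between these 2 groups of PC3 the largest marker difference was 12.5, so the groups differ in more than the members. The part of the line markers in the results was not tested. In bulk RNA, fewer cells expressing a gene and less RNA of it per cell cannot be told apart.

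In the control cells, DU145 had the highest mean level of every member except HLA-E, and 22Rv1 the lowest of every member except TAP2, with libraries scaled within each line. Per kilobase of exon, DU145 controls held 200 ± 10.4 CPM of HLA-B, 192 ± 6.33 of HLA-C and 191 ± 2.01 of B2M (SD, n = 3). In 22Rv1 the same scale gave 127 ± 9.36 for B2M, 52.0 ± 7.08 for HLA-C and 17.2 ± 2.61 for HLA-B. PC3 controls held 160 ± 11.9 CPM per kilobase of B2M, 109 ± 5.40 of HLA-E, 66.8 ± 5.35 of HLA-C and 24.7 ± 1.23 of HLA-B. The order of the heavy chains thus differed by line: HLA-B, whose DU145 libraries had a higher mean than those of HLA-C and B2M but overlapped with both, was below HLA-C in 22Rv1 and PC3, and HLA-E led the heavy chains in PC3 against 58.5 ± 2.01 CPM per kilobase in DU145 and 15.1 ± 0.846 in 22Rv1. HLA-F was the lowest heavy chain in each line, at 18.3 ± 1.22, 2.56 ± 0.203 and 0.243 ± 0.123 CPM per kilobase in DU145, PC3 and 22Rv1.

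The peptide supply genes were highest in DU145 too. TAP1 stood at 31.8 ± 1.23, 27.8 ± 1.81 and 8.08 ± 1.18 CPM per kilobase in DU145, PC3 and 22Rv1 controls, and TAP2 at 6.89 ± 0.579, 2.65 ± 0.0895 and 3.09 ± 0.275. PSMB8 reached 28.2 ± 0.993, 17.5 ± 0.502 and 2.83 ± 0.219, and PSMB9 21.1 ± 1.73, 3.05 ± 0.583 and 1.38 ± 0.391. PSMB9 was below PSMB8, which works in the same particle, in each line, and by the largest ratio in PC3.

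A fit of all 27 libraries gave the differences between lines. All 9 members were higher in DU145 than in 22Rv1 controls, where 75.9% of all genes differed in either direction. The log2 differences ran from 0.59 ± 0.09 (SE) for B2M to 6.22 ± 0.31 for HLA-F, whose 22Rv1 controls held 4 to 13 counts. HLA-B differed by 3.53 ± 0.19 (edgeR, adjusted p = 4.52e-15), an 11.6-fold difference, and PSMB9 by 3.93 ± 0.24. In PC3, 8 of 9 were higher than in 22Rv1, against 80.5% of all genes that differed. Their differences ran from 0.49 for B2M to 3.53 for HLA-F, with HLA-E at 3.00 ± 0.10, an 8.01-fold difference, and PSMB8 at 2.78 ± 0.14. TAP2 was the exception at -0.07 ± 0.12 (adjusted p = 0.604). Between PC3 and DU145, 7 of 9 differed, against 75.9% of all genes. HLA-E alone of the 9 was higher in PC3, by 1.04 ± 0.09, while HLA-B (-2.87), HLA-F (-2.69), PSMB9 (-2.64), HLA-C (-1.37), TAP2 (-1.23) and PSMB8 (-0.54) were lower there. B2M (-0.10, adjusted p = 0.307) and TAP1 (-0.05, adjusted p = 0.687) were not called. With 1 set of control libraries per line, a line and the run in which it was handled cannot be told apart.

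**Figure D1:**
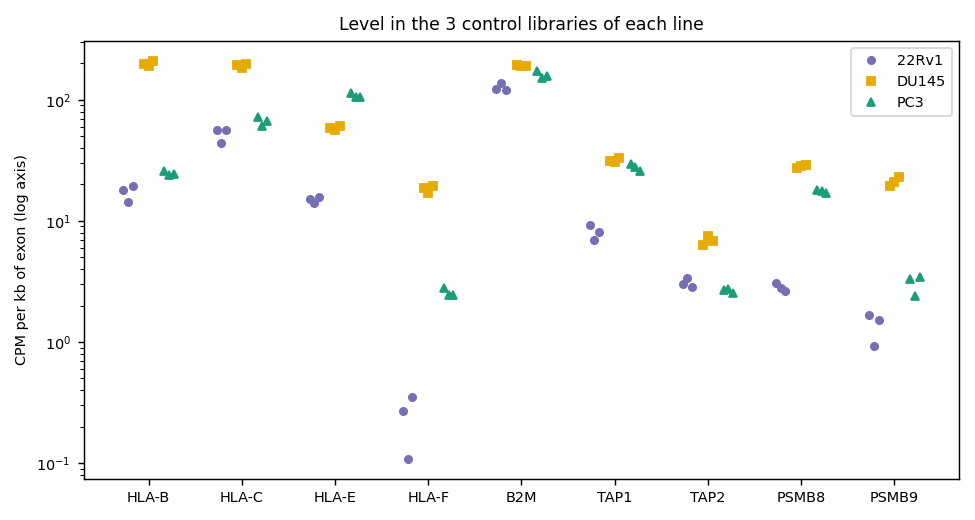
Level of each member in the control libraries, as CPM per kilobase of exon on a log axis, scaled within each line, with 1 marker per library. The squares of DU145 lie highest except at HLA-E, where the PC3 triangles lie above them, and the 22Rv1 circles of HLA-F are the lowest points.

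In 22Rv1, HLA-B, HLA-C, B2M and TAP2 were lower in both RIPK2 knockout groups. With gRNA 1, 4 of 8 tested members fell and none rose, while 22.9% of all genes fell, 25.6% rose and 48.5% changed in either direction. With gRNA 10, 5 of 8 fell and none rose, against 20.6% of genes that fell, 20.0% that rose and 40.6% in all. The median log2 fold change of the 8 was -0.30 and -0.47, and that of all tested genes 0.02 and 0.00.

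B2M held 295, 327 and 284 CPM in the 22Rv1 controls, 207, 212 and 162 with gRNA 1, and 182, 177 and 174 with gRNA 10. Every knockout library lay below every control library, and the log2 fold changes were -0.64 ± 0.11 (edgeR, adjusted p = 0.000958) and -0.76 ± 0.11 (adjusted p = 0.000322). HLA-B read 28.5, 22.7 and 30.8 CPM in controls, 9.58, 11.0 and 22.1 with gRNA 1 and 9.97, 8.52 and 11.5 with gRNA 10. Replicate 3 of gRNA 1 was near the lowest control, whereas the remaining gRNA 1 libraries were level with gRNA 10. HLA-B fell by 0.95 ± 0.27 with gRNA 1 (edgeR, adjusted p = 0.0148) and by 1.45 ± 0.28 with gRNA 10 (adjusted p = 0.00174), and without that replicate the gRNA 1 value was -1.42. HLA-C went from 87.2, 68.1 and 87.2 CPM to 42.7, 45.1 and 67.8 with gRNA 1 and 55.2, 52.9 and 53.2 with gRNA 10. Its groups did not overlap with the controls either, though replicate 3 of gRNA 1 was within 1 CPM of the lowest of them. The changes of HLA-C were -0.64 ± 0.17 (adjusted p = 0.00968) and -0.59 ± 0.17 (adjusted p = 0.0171), and the gRNA 10 call was lost when either of 2 control or 2 gRNA 10 libraries was left out (adjusted p up to 0.0627).

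HLA-E, at 39.6, 36.8 and 41.1 CPM in controls, did not pass the test with either guide (0.14 and -0.21, edgeR adjusted p = 0.348 and 0.175). It held 39.1, 39.3 and 50.8 CPM with gRNA 1 and 35.5, 33.2 and 32.9 with gRNA 10, so replicate 3 of gRNA 1 was again the high one. Without that replicate the fall with gRNA 10 passed the test (-0.20, adjusted p = 0.0340). HLA-F gave 10, 4 and 13 counts in controls, 1, 3 and 18 with gRNA 1 and 0, 2 and 3 with gRNA 10, too few for a test in this line.

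The 2 transporter subunits went apart in 22Rv1. TAP2 read 18.5, 21.0 and 17.7 CPM in controls and 7.98, 6.92 and 6.01 with gRNA 1, a fall of 1.45 ± 0.13 (edgeR, adjusted p = 1.09e-05) and the largest change among the members with this guide. With gRNA 10 it read 14.8, 14.1 and 15.8 CPM and fell by 0.35 ± 0.13 (adjusted p = 0.0450), a call that was lost in 7 of the 9 fits with 1 library left out (adjusted p up to 0.154) and with DESeq2 (adjusted p = 0.0506). TAP1, its partner in the heterodimer, held 20.4 to 27.4 CPM in controls and 22.6 to 31.5 CPM in the knockouts and was not called (0.19 and 0.13, adjusted p = 0.292 and 0.509).

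The immunoproteasome genes were low in this line. PSMB8 read 4.75, 4.35 and 4.07 CPM in controls and 1.81, 2.27 and 2.01 with gRNA 10, a fall of 1.11 ± 0.24 (edgeR, adjusted p = 0.00420). With gRNA 1 it read 3.57, 3.57 and 6.36 CPM and was not called (0.03, adjusted p = 0.925). Without replicate 3 of gRNA 1 the value was -0.31, still not called (adjusted p = 0.104). PSMB9 held 0.860 to 1.55 CPM in controls and 0.905 to 2.26 CPM in the knockouts, with fold changes of 0.11 and 0.10 that were not called.

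Against each other, the 2 knockout groups of 22Rv1 differed in 3 of 8 members, with 35.6% of all genes differing. TAP2 was higher with gRNA 10 than with gRNA 1 by 1.09 ± 0.13 (edgeR, adjusted p = 0.000119), and PSMB8 was lower by 1.14 ± 0.24 (adjusted p = 0.00447). HLA-E was lower by 0.35 ± 0.12 (adjusted p = 0.0387), which without replicate 3 of gRNA 1 came to -0.20 (adjusted p = 0.0749). Without that replicate HLA-C (0.31, adjusted p = 0.0344) and B2M (-0.22, adjusted p = 0.0147) also differed between the guides.

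**Figure D2:**
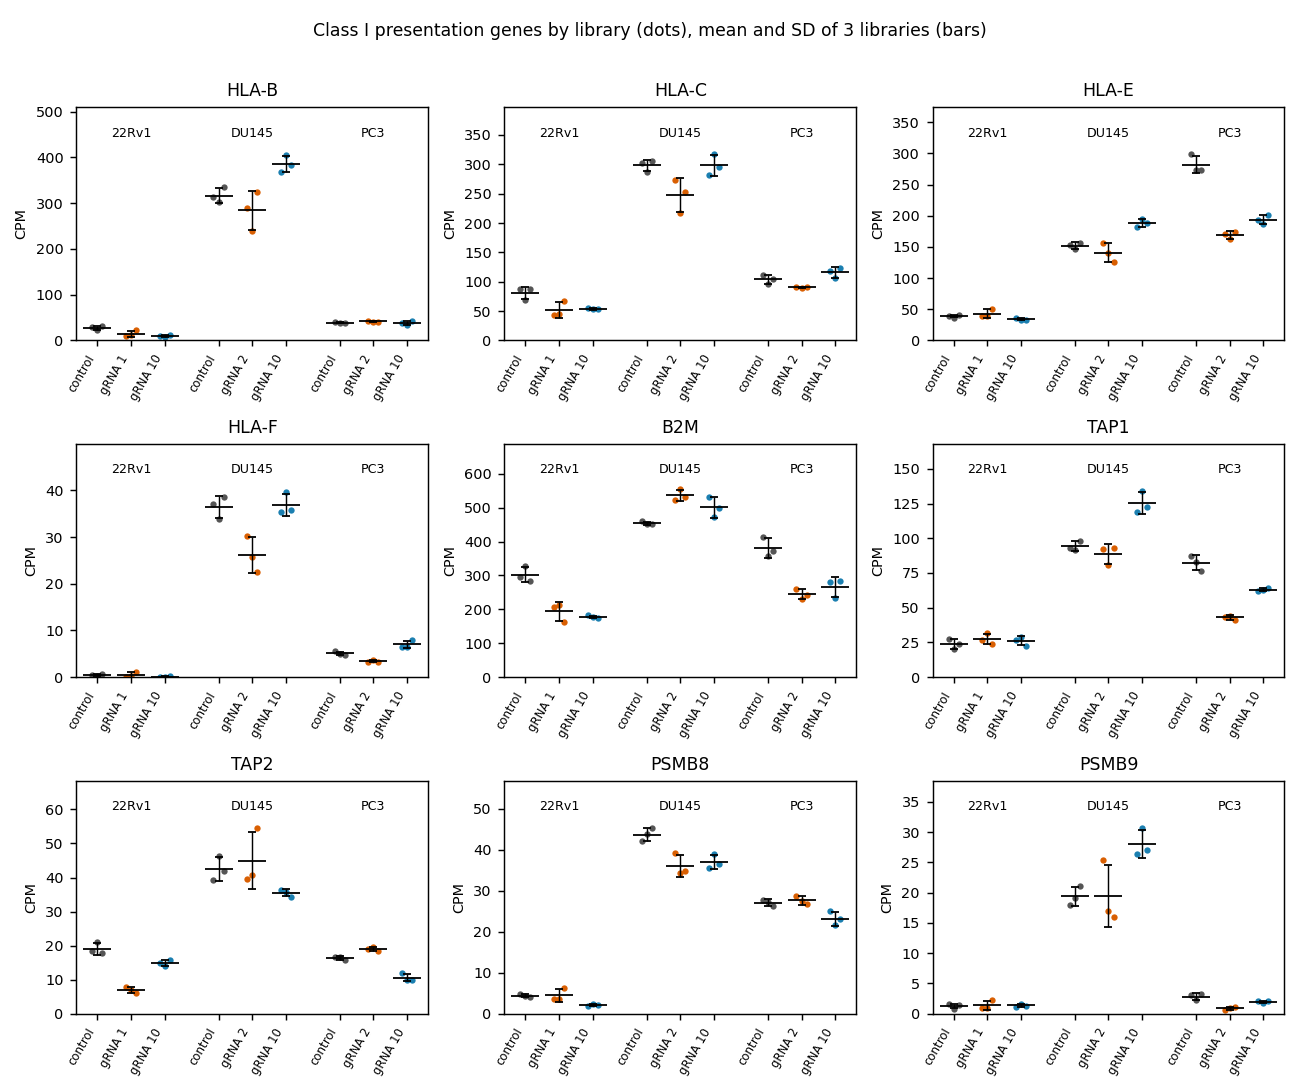
CPM of each member in every library (dots: grey control, orange first RIPK2 guide, blue gRNA 10), with the mean and SD of 3 libraries, scaled within each line and on a linear axis from 0 that differs by gene. B2M is lower in both knockout groups of 22Rv1 and PC3 and not in DU145, and TAP1 falls in PC3 while it stays between 20.4 and 31.5 CPM in 22Rv1.

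In DU145, no member changed by more than 0.53 on the log2 scale, and the share of members called was near that of all genes with both guides. With gRNA 2, 1 of 9 members rose and 2 fell, against 17.1% of genes that rose, 17.0% that fell and 34.0% in all. With gRNA 10, 3 rose and 1 fell, against 20.2%, 19.8% and 40.0%. The medians of the 9 were -0.11 and 0.14 on the log2 scale, and those of all genes 0.01 and 0.00. The gRNA 2 count ranged from 1 to 5 and the gRNA 10 count from 1 to 6 when single libraries were left out, and the 5 came without replicate 3 of gRNA 2.

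TAP1 read 93.2, 91.2 and 98.3 CPM in DU145 controls, 92.2, 80.6 and 93.1 with gRNA 2 and 119, 134 and 123 with gRNA 10. All gRNA 10 libraries lay above the others, and TAP1 rose by 0.41 ± 0.09 with that guide (edgeR, adjusted p = 0.00347) and was not called with gRNA 2 (-0.09, adjusted p = 0.455). PSMB9, its divergent neighbour, read 17.9, 19.2 and 21.1 CPM in controls and 26.3, 30.6 and 27 with gRNA 10, a rise of 0.53 ± 0.16 (adjusted p = 0.0253). With gRNA 2 it read 25.3, 16.9 and 16.0 CPM, a spread that covered the controls (0.00, adjusted p = 0.992). HLA-E went from 153, 147 and 157 CPM to 182, 195 and 189 with gRNA 10, a rise of 0.31 ± 0.09 (adjusted p = 0.0183). The PSMB9 and HLA-E calls were each lost without replicate 2 or 3 of gRNA 10 or replicate 1 or 2 of the control (adjusted p up to 0.0939 and 0.0750), whereas the TAP1 call held under every alternative run. HLA-B, at 368, 405 and 384 CPM with gRNA 10 against 313, 302 and 334, was above all controls but narrowly missed the threshold (0.29 ± 0.11, adjusted p = 0.0559). It passed without replicate 2 or 3 of gRNA 2 (adjusted p = 0.0120 and 0.00417).

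PSMB8 was the member with a like value under both guides of DU145. It read 42.1, 43.7 and 45.2 CPM in controls, 39.1, 34.2 and 34.7 with gRNA 2 and 35.6, 39.0 and 36.4 with gRNA 10, and fell by 0.28 ± 0.09 (edgeR, adjusted p = 0.0303) and 0.24 ± 0.09 (adjusted p = 0.0472). Both calls lie close to the threshold and were lost without any single one of the 3 control libraries (adjusted p up to 0.156). HLA-F, at 37.0, 33.8 and 38.5 CPM in controls, fell by 0.48 ± 0.12 to 30.3, 25.7 and 22.5 with gRNA 2 (adjusted p = 0.0104), and with gRNA 10 it held 35.3, 39.6 and 35.8 CPM (0.02, adjusted p = 0.906).

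B2M in DU145 rose with gRNA 2, from 460, 451 and 452 CPM to 524, 554 and 532 (0.24 ± 0.08, edgeR, adjusted p = 0.0333), and its gRNA 10 libraries, at 532, 471 and 500, were also above the controls without passing the test (0.14, adjusted p = 0.168). The gRNA 2 call was lost without any single one of the 3 control libraries (adjusted p up to 0.113). HLA-C (-0.27 and 0.00, adjusted p = 0.0519 with gRNA 2) and TAP2 (0.08 and -0.26) were not called with either guide. Without replicate 3 of gRNA 2, HLA-C (-0.28, adjusted p = 0.0203) and HLA-B (-0.25, adjusted p = 0.0216) passed with gRNA 2 and TAP2 passed with gRNA 10 (-0.26, adjusted p = 0.00820).

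Set against each other, the 2 guide groups of DU145 differed in 6 of 9 members, all higher with gRNA 10 than with gRNA 2, where 38.8% of all genes differed in either direction. They were HLA-F (0.50 ± 0.12), TAP1 (0.50 ± 0.09), PSMB9 (0.53 ± 0.16), HLA-B (0.44 ± 0.11), HLA-E (0.42 ± 0.09) and HLA-C (0.27 ± 0.10), with edgeR adjusted p-values from 0.00131 to 0.0463. Of these, the PSMB9 and HLA-C calls were lost when single libraries were left out (adjusted p up to 0.0972 and 0.160). TAP2 went the other way, lower in every gRNA 10 library but not called (-0.34, adjusted p = 0.0555), and it passed without gRNA 2 replicate 1 (-0.43, adjusted p = 0.0321) or 2 (-0.41, adjusted p = 0.0313) and without a filter on low counts (-0.37, adjusted p = 0.0459). RIPK2 itself held 9.87 to 13.3 CPM with gRNA 2 and 33.4 to 36.4 CPM with gRNA 10 in these groups, against 39.4 to 44.4 CPM in the controls.

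In PC3, HLA-E, B2M, TAP1 and PSMB9 were lower in both knockout groups. With gRNA 2, 6 of 9 members fell and 1 rose, against 31.5% of genes that fell, 32.1% that rose and 63.6% in all. With gRNA 10, 6 fell and 2 rose, against 35.6%, 37.9% and 73.5%. The medians of the 9 were -0.57 and -0.39, with 0.01 for all genes in both. Replicates of PC3 lay closer together than in the other lines (common biological coefficient of variation 3.55%, against 14.2% in 22Rv1 and 12.3% in DU145), so smaller differences passed the test.

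HLA-E, the most abundant heavy chain of this line, read 298, 274 and 274 CPM in controls, 170, 162 and 174 with gRNA 2 and 194, 187 and 201 with gRNA 10. No knockout library reached a control, and HLA-E fell by 0.74 ± 0.04 (edgeR, adjusted p = 3.51e-16) and 0.54 ± 0.04 (adjusted p = 2.78e-13). B2M, at 413, 359 and 372 CPM in controls, held 261, 232 and 244 with gRNA 2 and 282, 232 and 285 with gRNA 10. Its falls were 0.64 ± 0.09 (adjusted p = 0.000594) and 0.52 ± 0.09 (adjusted p = 0.00146), again without overlap.

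The divergent pair TAP1 and PSMB9 fell together. TAP1 read 87.4, 82.5 and 76.7 CPM in PC3 controls, 43.6, 44.2 and 41.2 with gRNA 2 and 62.3, 62.5 and 64.1 with gRNA 10. It fell by 0.94 ± 0.05 (edgeR, adjusted p = 1.85e-16), or 1.91-fold, and by 0.39 ± 0.05 (adjusted p = 1.84e-08). PSMB9 was shallow in PC3, with 61, 44 and 64 counts in controls and 13, 18 and 23 with gRNA 2. It went from 3.05, 2.19 and 3.18 CPM to 0.640, 0.887 and 1.14 with gRNA 2 and 2.13, 1.83 and 2.02 with gRNA 10. The first is a fall of 1.65 ± 0.22 (adjusted p = 1.36e-07), the largest among the members in this line, and the second, of 0.49 ± 0.18 (adjusted p = 0.0178), was not called by DESeq2 (adjusted p = 0.116) or without control replicate 1 or 3 or gRNA 10 replicate 2 (adjusted p up to 0.0945). TAP1 and PSMB9 overlap on opposite strands in GENCODE 29, and whether the counting used the strand is not given in the sources used here, so reads in the shared stretch may have been given to either gene.

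Of the other members of PC3, TAP2, HLA-F and HLA-C were called in opposite directions with the 2 guides. TAP2 read 16.6, 16.8 and 15.7 CPM in controls, rose to 18.9, 19.7 and 18.4 with gRNA 2 (0.21 ± 0.07, edgeR, adjusted p = 0.0112) and fell to 11.8, 10.0 and 10.0 with gRNA 10 (-0.62 ± 0.08, adjusted p = 3.72e-08). The rise was not called by DESeq2 (adjusted p = 0.0818) or without control replicate 3 (0.0572) or gRNA 2 replicate 2 (0.0526). HLA-F did the reverse, from 5.54, 4.88 and 4.82 CPM to 3.30, 3.65 and 3.31 with gRNA 2 (-0.57 ± 0.13, adjusted p = 0.000431) and 6.53, 6.55 and 7.88 with gRNA 10 (0.46 ± 0.11, adjusted p = 0.000652). HLA-C, at 112, 95.4 and 104 CPM in controls, fell by 0.20 ± 0.06 to 91.3, 88.6 and 91.0 with gRNA 2 (adjusted p = 0.00426). With gRNA 10 its libraries overlapped the controls at 119, 106 and 123 CPM, a rise of 0.16 ± 0.06 (adjusted p = 0.0160) that was lost without control replicate 2 or gRNA 10 replicate 1 or 3 (adjusted p up to 0.105). PSMB8, at 27.8, 27.3 and 26.3 CPM in controls, fell by 0.23 ± 0.06 to 25.0, 21.5 and 23.0 with gRNA 10 (adjusted p = 0.00178) and was not called with gRNA 2 (0.03, adjusted p = 0.712). HLA-B, at 37.7 to 41.3 CPM in controls, was not called with gRNA 2 (0.09, adjusted p = 0.202) or gRNA 10 (-0.03, adjusted p = 0.652).

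Compared directly, the 2 knockout groups of PC3 differed in 7 of 9 members, about the share of all genes that differed, 73.4%. With gRNA 10, PSMB9 was higher by 1.16 ± 0.24, HLA-F by 1.03 ± 0.12, TAP1 by 0.55 ± 0.05, HLA-C by 0.36 ± 0.06 and HLA-E by 0.20 ± 0.04, and TAP2 was lower by 0.84 ± 0.08 and PSMB8 by 0.25 ± 0.06 (edgeR, adjusted p at most 0.000552). B2M (0.12) and HLA-B (-0.12) were not called, but passed without gRNA 10 replicate 2 (0.21, adjusted p = 0.00305) and replicate 3 (-0.20, adjusted p = 0.00389).

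**Figure D3:**
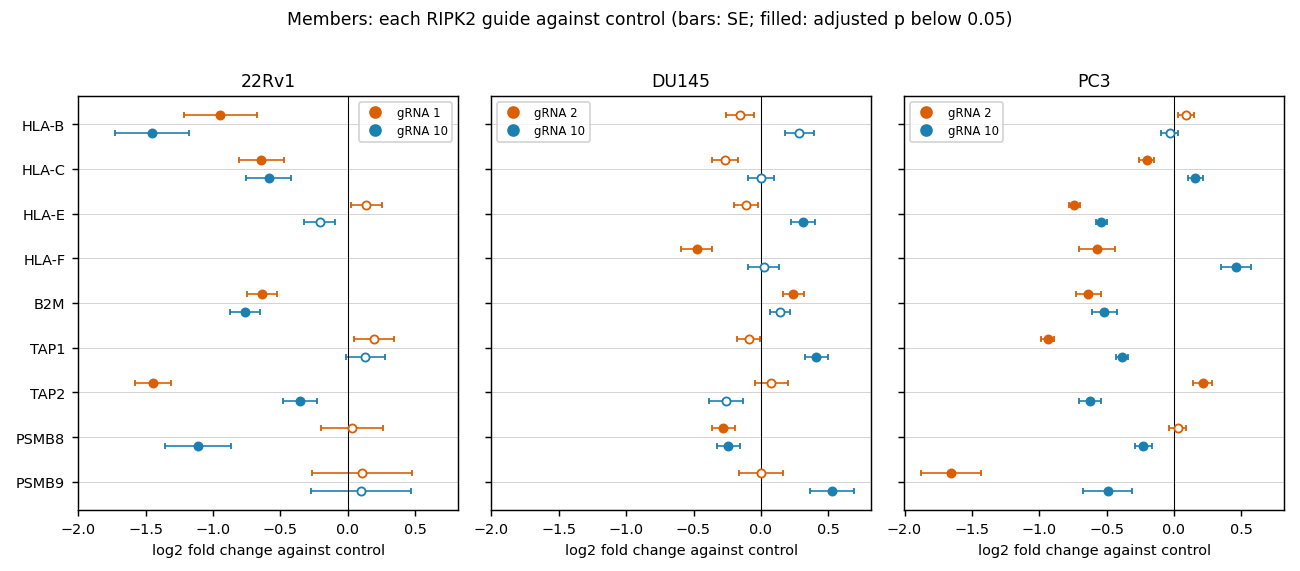
Log2 fold change of each member against the control of its line (x axis, shared by the 3 panels) for the first RIPK2 guide (orange) and gRNA 10 (blue), with SE bars, filled where the adjusted p is below 0.05. In 22Rv1 the filled points are all to the left of 0, in DU145 they lie within 0.53 of it on both sides, and in PC3 B2M, HLA-E, TAP1 and PSMB9 lie to the left with both guides.

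Whether the mean effect of both guides differed between lines was tested in the fit of all libraries, in which it differed for 7 of 9 members and for 66.5% of all genes. B2M changed by -0.70 in 22Rv1, 0.19 in DU145 and -0.59 in PC3 (edgeR, adjusted p = 2.90e-07 for the difference). The heavy chains split: HLA-B changed by -1.20 in 22Rv1 but 0.07 in DU145 and 0.02 in PC3 (adjusted p = 2.28e-05), and HLA-E by -0.65 in PC3 but -0.03 in 22Rv1 and 0.10 in DU145 (adjusted p = 2.20e-06). HLA-C followed HLA-B with -0.61, -0.13 and -0.04 (adjusted p = 0.00407). TAP1 changed by 0.16, 0.17 and -0.68 (in 22Rv1, DU145 and PC3, adjusted p = 1.69e-06) and PSMB9 by 0.10, 0.27 and -1.09 (adjusted p = 0.000594). The mean effect on TAP2 was largest in 22Rv1, at -0.90 against -0.09 and -0.22 (adjusted p = 3.40e-05). These means can cover guides that differ. TAP2 changed by -1.45 and -0.35 in 22Rv1 and by 0.21 and -0.62 in PC3 (first guide and gRNA 10). With gRNA 10 it thus fell more in PC3 than in 22Rv1. The HLA-C mean in PC3 likewise covers -0.20 and 0.16. PSMB8 (-0.54, -0.26 and -0.11, adjusted p = 0.0981) and HLA-F (adjusted p = 0.179, with 0 to 18 counts in 22Rv1) did not pass. Without replicate 3 of gRNA 1 in 22Rv1 both passed (adjusted p = 0.000862 for PSMB8 and 0.00270 for HLA-F).

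The rest of the pathway was described through 7 lists. Of all genes, 48.5% and 40.6% were called in either direction in 22Rv1, 34.0% and 40.0% in DU145, and 63.6% and 73.5% in PC3 (first guide and gRNA 10). The counts below are to be read beside these shares, of which rises and falls each made up about equal parts. Of 7 peptide loading and trimming genes, 2 rose and 3 fell with gRNA 1 and 1 rose and 4 fell with gRNA 10 in 22Rv1. In DU145, 2 rose and 1 fell with gRNA 2 and 4 rose with gRNA 10, and of 6 tested in PC3, 2 rose with each guide and 4 and 3 fell. In 22Rv1 the chaperones PDIA3 (-0.54 and -0.75) and CANX (-0.37 and -0.57), which fold and hold the heavy chain, fell with both guides. PDIA3 also fell in PC3 (-0.15 and -0.26) and rose with gRNA 10 in DU145 (0.35), while CANX rose in DU145 (0.33 and 0.47) and PC3 (0.72 and 0.39). TAPBP, or tapasin, which bridges TAP to the heavy chain, rose in DU145 with both guides (0.35 and 0.38) and in 22Rv1 with gRNA 10 (0.29). In PC3 it held 181, 173 and 177 CPM in controls, fell to 140, 142 and 144 with gRNA 2 (-0.32) and rose to 221, 227 and 222 with gRNA 10 (0.33). ERAP2, an aminopeptidase that trims peptides in the endoplasmic reticulum, fell in PC3 from 22.5, 23.6 and 21.1 CPM to 13.9, 12.9 and 12.7 with gRNA 2 (-0.77) and 7.83, 7.90 and 6.97 with gRNA 10 (-1.57 ± 0.08, edgeR, adjusted p = 3.58e-17). It rose in DU145 with gRNA 10 (0.43). ERAP1, its relative, fell with gRNA 2 in DU145 (-0.53) and rose with gRNA 2 in PC3 (0.30) and, just past the threshold, with gRNA 1 in 22Rv1 (0.34, adjusted p = 0.0498).

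The constitutive catalytic subunits PSMB5, PSMB6 and PSMB7, which PSMB8, PSMB9 and PSMB10 replace in the immunoproteasome, moved little. None of the 3 was called in 22Rv1 or with gRNA 2 in DU145 or PC3. PSMB5 fell with gRNA 10 in DU145 (-0.48), and PSMB6 and PSMB7 fell with gRNA 10 in PC3 (both -0.13). PSMB10, the remaining immunoproteasome catalytic subunit, was low in all lines (0.997 to 2.36 CPM on average in controls) and fell in PC3 with gRNA 2 (-0.87 ± 0.21, edgeR, adjusted p = 0.000471). Of the 5 genes of its list, which adds activator subunits and an assembly factor, none was called with the first guide in 22Rv1 or DU145. With gRNA 10 in 22Rv1 1 rose and 2 fell, in DU145 1 fell, and in PC3 3 fell with gRNA 2 and 1 rose and 2 fell with gRNA 10. PSME3 (-0.16 and -0.26) and POMP (-0.19 and -0.30) fell with both guides in PC3.

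Among 7 other class I and class I-like heavy chains, HLA-G held 0 to 4 counts per library and was tested in no line. MICA, a stress-induced ligand of NKG2D, fell in 22Rv1 with both guides (-0.70 and -1.40) and rose in DU145 (0.27 and 1.00). Its libraries read 31.1, 28.4 and 31.9 CPM in DU145 controls and 61.6, 60.8 and 59.8 with gRNA 10. In PC3, MR1, which presents microbial vitamin metabolites, rose (0.68 and 0.77), and FCGRT, the heavy chain of the neonatal Fc receptor, fell (-0.41 and -0.48). In counts, 1 and 2 of 4 tested fell in 22Rv1 (gRNA 1 and gRNA 10), 2 of 5 rose with each guide in DU145, and of 4 in PC3, 2 rose and 1 fell with gRNA 2 and 1 rose and 1 fell with gRNA 10.

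Of 16 transcription factors of class I genes, 3 rose and 3 fell with each guide in 22Rv1, and of 15 tested in DU145, 3 rose and 3 fell with gRNA 2 and 5 rose and 3 fell with gRNA 10. In PC3, 4 rose and 11 fell with gRNA 2, where 32.1% of all genes rose and 31.5% fell. With gRNA 10, 8 rose and 3 fell, where 37.9% of all genes rose and 35.6% fell. NLRC5, the class I transactivator, read 16.2, 17.4 and 17.7 CPM in DU145 controls and fell to 9.97, 8.04 and 6.91 with gRNA 2 (-1.04 ± 0.15, edgeR, adjusted p = 0.000709) and 10.1, 12.7 and 9.96 with gRNA 10 (-0.64 ± 0.15, adjusted p = 0.00644). Of the 9 members, 1 rose and 2 fell in the first of these groups, and 3 rose and 1 fell in the second. In PC3, NLRC5 went from 11.5, 8.96 and 7.60 CPM to 5.37, 5.03 and 5.09 with gRNA 2 (-0.86 ± 0.13, adjusted p = 1.55e-06) and held 9.77, 8.86 and 8.46 with gRNA 10 (-0.05, adjusted p = 0.686). There 1 member rose and 6 fell with gRNA 2, and 2 rose and 6 fell with gRNA 10. NLRC5 was low in 22Rv1, at 0.376 to 0.697 CPM in controls, and not called there (1.17 and 0.94, adjusted p = 0.0587 and 0.138). A link between NLRC5 and the members was not tested.

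STAT2, which carries the type I interferon signal to the nucleus, went in opposite directions with the 2 guides of PC3. It fell by 0.73 ± 0.08 with gRNA 2 (edgeR, adjusted p = 1.12e-05) and rose by 1.02 ± 0.07 with gRNA 10 (adjusted p = 3.20e-07). In 22Rv1, STAT2 rose with both guides (1.11 and 1.15). IRF1, which is induced by interferon gamma and by NF-kB, rose in 22Rv1 from 2.35, 2.20 and 2.46 CPM to 3.62, 3.57 and 4.64 (0.75) and 7.28, 5.21 and 5.77 (1.38). With gRNA 10 in DU145 IRF1 also rose (0.75 ± 0.10, adjusted p = 0.000231) and fell slightly in PC3 (-0.25 and -0.18). RFX5, the DNA-binding subunit of the RFX complex, fell in 22Rv1 (-0.35 and -0.70) and rose in PC3 (0.27 and 0.33), and RFXAP rose in DU145 (0.77 and 0.86). In PC3 the NF-Y subunits parted, with NFYC higher (0.52 and 0.77) and NFYA lower (-0.14 and -1.06).

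Of 7 interferon receptor chains and kinases, 3 rose and 1 fell with gRNA 1 and 2 rose with gRNA 10 in 22Rv1, 2 and 4 rose in DU145, and in PC3 1 rose and 2 fell with gRNA 2 and 3 rose and 3 fell with gRNA 10. JAK1, the kinase shared by both interferon receptor types, held 4.53 to 4.88 CPM in 22Rv1 controls against 203 to 215 in DU145 and 66.9 to 69.1 in PC3, each scaled within its line. JAK1 was raised with gRNA 10 in DU145 by 0.82 ± 0.15 (edgeR, adjusted p = 0.00173) and rose in PC3 with both guides (0.31 and 0.43). JAK2 fell in PC3 (-0.22 and -0.78) and rose with gRNA 10 in DU145 (0.53). IFNGR1, the ligand-binding chain for interferon gamma, rose in DU145 (0.37 and 0.53) and fell with gRNA 1 in 22Rv1 (-0.76). TYK2 (0.68 and 0.60) and IFNGR2 (0.60 and 0.43) rose in 22Rv1, and IFNAR2 rose in DU145 (0.33 and 0.27).

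The next list holds 7 genes entered as negative regulators of class I, a role that was not tested. In 22Rv1, 1 of the 7 rose and 1 fell with gRNA 1, and 3 rose and 1 fell with gRNA 10. In DU145 1 rose and 2 fell with each guide, and in PC3 1 rose and 4 fell with gRNA 2 and 3 rose and 3 fell with gRNA 10. EZH2, the methyltransferase of the Polycomb complex that can silence antigen presentation genes, rose with gRNA 1 in 22Rv1 (0.62), fell with gRNA 10 in DU145 (-0.58) and rose with gRNA 10 in PC3 (0.26). Its partner SUZ12 fell in 22Rv1 (-0.70 and -0.47) and EED rose in DU145 (0.47 and 0.44). TMEM127, which lowers class I display at the surface, fell in PC3 (both -0.22). SPPL3 fell there too (-0.28 and -0.24), and it is counted in this list although it is not known to lower class I display.

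**Figure D4:**
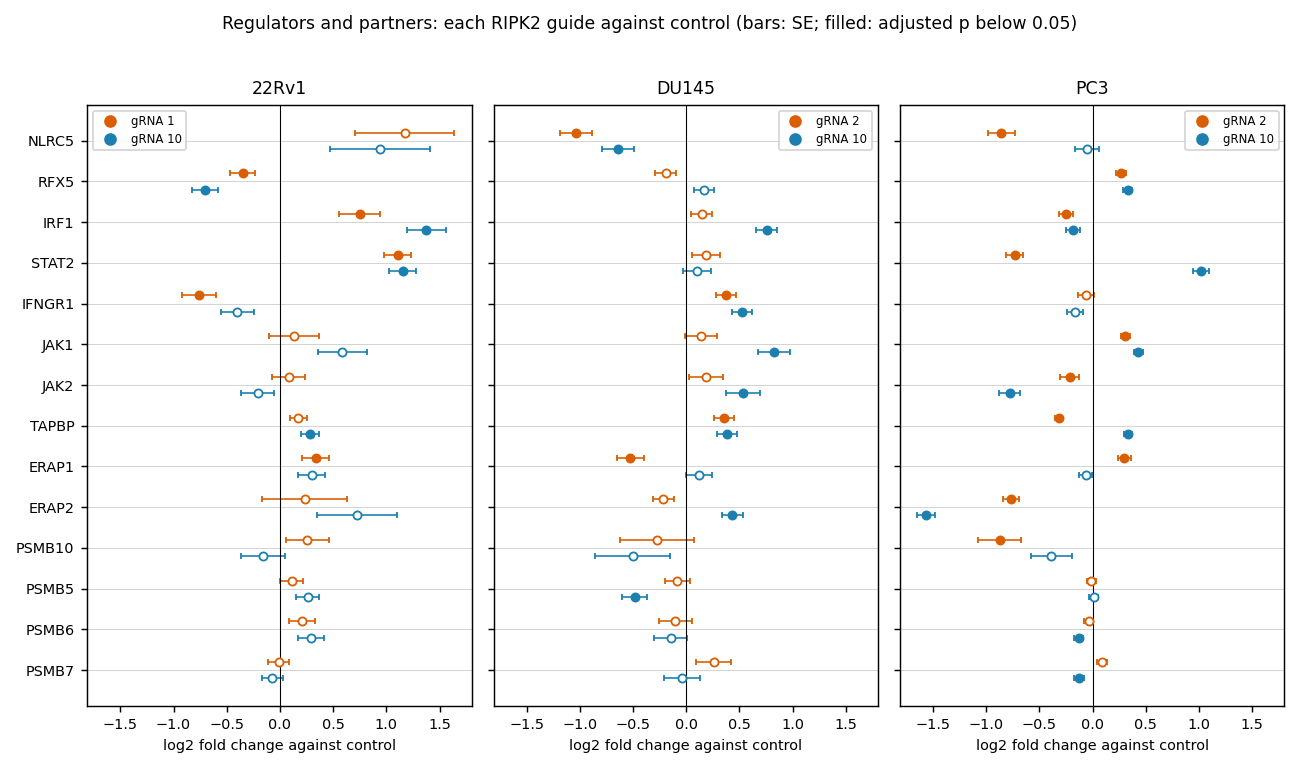
Log2 fold change against the control of the line (x axis, shared by the 3 panels) of transcription factors, interferon receptor and kinase genes, loading and trimming genes and proteasome subunits, with SE bars, filled where the adjusted p is below 0.05. STAT2 and TAPBP lie on opposite sides of 0 for the 2 guides of PC3, and NLRC5 is filled to the left for both guides of DU145 and for gRNA 2 of PC3.

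Genes that lie near the members in the MHC region, and were listed here as without a role in presentation, gave the local level of change. That property was taken from the list and was not tested. Of 28 such genes, 27 were tested in each line, and their median log2 fold changes were 0.05 and -0.04 in 22Rv1, 0.14 and 0.00 in DU145 and 0.10 and 0.01 in PC3 (first guide and gRNA 10). In 22Rv1, 8 of the 27 rose and 1 fell with gRNA 1 and 8 rose and 4 fell with gRNA 10. In PC3, 13 rose and 6 fell with gRNA 2, and 10 rose and 10 fell with gRNA 10. DU145 had 5 that rose and 1 that fell with gRNA 2, and 1 that rose and 5 that fell with gRNA 10. The shares of all genes called in each contrast are those given with the pathway lists. Of the neighbours, 2 were picked after their values were seen. DDR1, a collagen receptor, rose in 22Rv1 (1.76 and 0.67), with gRNA 1 by more than any tested member changed, and IER3, an early response gene, rose in DU145 (1.72 and 1.01), with each guide by more than any member changed.

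**Figure D5:**
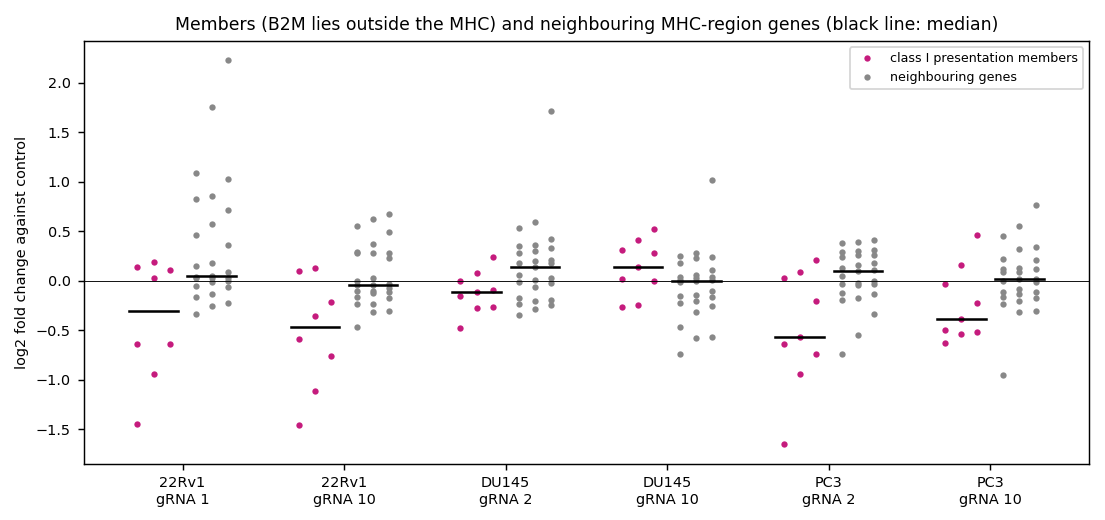
Log2 fold change against control (y axis) of the members (magenta) and of 27 neighbouring genes of the MHC region (grey) for each RIPK2 guide of each line, with 1 dot per gene and a line at the median. The neighbours' medians lie between -0.04 and 0.14, and the members' medians reach -0.47 in 22Rv1 and -0.57 in PC3.

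Of 9604 genes with at least 100 counts on average in each line, those whose 6 log2 fold changes came nearest to the members' medians were CALR, ZNF652, MSI2, REEP3 and ELK1. Their root mean square distances over the 6 contrasts were 0.105, 0.114, 0.116, 0.117 and 0.127, where a gene with no change in any contrast would be 0.369 away and the median candidate 0.519. These genes were picked as the nearest of all candidates, so their small distances follow from the choice. The members themselves spread about the medians, from -1.45 to 0.19 with gRNA 1 in 22Rv1 and from -1.65 to 0.21 with gRNA 2 in PC3. A gene near the medians is therefore not near each member. CALR, or calreticulin, the chaperone of the peptide loading complex, had log2 fold changes of -0.22 and -0.57 in 22Rv1, 0.00 and 0.10 in DU145 and -0.40 and -0.29 in PC3 (first guide and gRNA 10). CALR is in the peptide loading list above. The 2 contrasts of a line share their control libraries, so the 6 values are not independent.

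How reads were shared limits some of these values. HLA genes are polymorphic and near-identical to one another over long stretches, and how reads matching several of them were counted is not given in the sources used here, so HLA-B, HLA-C, HLA-E and HLA-F are uncertain to that extent. How well the HLA alleles of each line match the reference build was not tested, and it may affect the differences between lines in these genes. In GENCODE 29, PSMB8-AS1 overlaps PSMB8, PSMB9 and TAP1, and HLA-F-AS1 overlaps HLA-F. On the same strand, which strand-aware counting cannot resolve, the TAP2 model overlaps AL669918.1, a protein-coding model, over 16948 bases, and the HLA-B and HLA-C models overlap over 2640 bases. PSMB8-AS1 held at most 7 counts in a 22Rv1 library, 36 in DU145 and 22 in PC3, and HLA-F-AS1 at most 72, 81 and 122.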

How the data were processed

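Total RNA of each culture was made into strand-specific mRNA libraries read as paired 150-base ends, per the labels' protocols. The authors deposited a table of raw counts per gene symbol for each line, per the file headers. FastQC, STAR and edgeR and the build hg38 are named in the submitters' processing notes, and the counting program, annotation and any filter are not given in the sources used here. Symbols listed more than once were summed (6 in 22Rv1, 2 in DU145, 2 in PC3).

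Each line's 9 libraries were fitted together in edgeR 4.0.16 under R 4.3.3. The steps were filterByExpr with a minimum count of 10 and minimum total of 15, TMM scaling, a robust quasi-likelihood fit with group as the only term, a two-sided F test, and Benjamini-Hochberg adjustment over all genes tested (15198 in 22Rv1, 14908 in DU145, 14718 in PC3). A gene is called at an adjusted p below 0.05. One fit of all 27 libraries over 16322 genes gave differences between control lines and, with 2 degrees of freedom, between lines in the mean effect of both guides. The standard error comes from the F statistic. CPM use the TMM-scaled totals of the line. Length is the union of exons of the basic protein-coding transcripts in GENCODE 29. A count of 0 allows up to 3 counts, or 0.144 to 0.178 CPM, which covers counting error only. The procedure was tested on simulated counts.

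The members and lists were chosen with earlier results of these data known. All members are named, with RIPK2, a fixed set of pathway genes, at most 2 genes per list and line with the largest mean change among those called with both guides in one direction at 100 or more counts, and the 5 genes nearest to the members' medians. Some genes that this rule or the lists hold were left out of the text after their values had been seen and are not reported here, though the counts per list include those in a list. Libraries of one group were not duplicates (chi-square per degree of freedom between replicates at least 1.82). Alternatives were DESeq2, RLE factors, other filters, fewer libraries, removal of mitochondrially encoded genes, a replicate block and leaving out each library.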

Additional observations from a re-analysis of the deposited data

Results flagged for a closer look

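Each of 7 members was singled out because the mean effect of both RIPK2 guides differed between the 3 lines in the edgeR fit of all 27 libraries. The adjusted p-values of the difference were 2.90e-07 for B2M, 1.69e-06 for TAP1, 2.20e-06 for HLA-E, 2.28e-05 for HLA-B, 3.40e-05 for TAP2, 0.000594 for PSMB9 and 0.00407 for HLA-C. B2M fell by 0.70 in 22Rv1 and 0.59 in PC3 and changed by 0.19 in DU145. HLA-B, HLA-C and TAP2 had their largest mean effect in 22Rv1 (-1.20, -0.61 and -0.90), and HLA-E, TAP1 and PSMB9 had theirs in PC3 (-0.65, -0.68 and -1.09). With gRNA 10 alone, however, TAP2 fell more in PC3 (-0.62) than in 22Rv1 (-0.35). All 7 stayed past the threshold under every alternative run for this comparison, and 66.5% of all genes tested also differed between lines. A line cannot be fully told apart here from the guides used or from the extent of its RIPK2 fall.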

How the results depend on the processing

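Each value counted here is 1 member in 1 contrast, so a member can count more than once. Of 31 values called for a guide against control, 21 kept their call and direction under all alternatives run for them. So did 13 of 16 values called between guides, all 24 called between control lines and all 7 called between lines. No called value changed sign. The difference between lines in HLA-F was called by DESeq2 (adjusted p = 0.0405), not by edgeR. The calls lost under some alternative were B2M and PSMB8 with gRNA 2 and HLA-E, PSMB8 and PSMB9 with gRNA 10 in DU145, HLA-C and TAP2 with gRNA 10 in 22Rv1, TAP2 with gRNA 2 and HLA-C and PSMB9 with gRNA 10 in PC3, and, between guides, HLA-E in 22Rv1 and HLA-C and PSMB9 in DU145. The count of members called with gRNA 2 in DU145 went from 3 to 1 without a filter, with only the libraries compared and with a replicate block, and that with gRNA 10 in DU145 from 4 to 7 with only the libraries compared; the cause was not tested. Leaving out single libraries gave 1 to 5 and 1 to 6 members called in these contrasts, and 3 to 6 with gRNA 10 in 22Rv1.

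Replicate numbers did not pair the libraries: same-numbered libraries had correlations of -0.08 to 0.34 in 22Rv1, -0.19 to 0.07 in DU145 and -0.05 to 0.06 in PC3, and 0, 1 and 1 of 9 libraries correlated best with their own number. The block brought B2M (0.11, adjusted p = 0.00647) and HLA-B (-0.12, adjusted p = 0.0453) past the threshold between the guides of PC3. With the replicate block, PSMB9 changed sign near 0 for gRNA 2 in DU145 (-0.011) and between guides in 22Rv1 (0.044), where DESeq2 gave 0.0091 and no filter 0.041. Without a filter HLA-C with gRNA 10 in DU145 was -0.0071 and PSMB8 with gRNA 1 in 22Rv1 -0.029. Uncalled values that changed sign when a library was left out had these ranges: in 22Rv1 with gRNA 1, HLA-E -0.0077 to 0.20, PSMB8 -0.31 to 0.17 and PSMB9 -0.44 to 0.33. With gRNA 10 PSMB9 ranged from -0.11 to 0.27, and between guides HLA-C from -0.066 to 0.31, PSMB9 from -0.23 to 0.55 and TAP1 from -0.14 to 0.051. In DU145, gRNA 2 gave -0.23 to 0.13 for PSMB9 and -0.081 to 0.17 for TAP2, gRNA 10 gave -0.044 to 0.039 for HLA-C and -0.033 to 0.062 for HLA-F, and PSMB8 between guides ranged from -0.0018 to 0.098. In PC3, PSMB8 with gRNA 2 ranged from -0.0027 to 0.053 and HLA-B with gRNA 10 from -0.11 to 0.043, and TAP2 between PC3 and 22Rv1 controls from -0.12 to 0.0063. With a minimum of 10 counts in every library HLA-F could not be tested in the fit of all lines, and leaving out the libraries that stand apart within a single line is the same as leaving out that library. Depth limits HLA-F and PSMB9 in 22Rv1, and PSMB9 in PC3, where it held 13 to 23 counts with gRNA 2.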
